A study of Mus musculus with 16 samples.

Results

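Motile cilia are the beating hairs of the ependymal cells that line the central canal of the spinal cord. The genes described here are 9 that build or switch on such cilia, taken from the 23284 gene symbols of the count table by name: Foxj1, Rsph1, Dynlrb2, Ak7, Hydin, Dnah5, Dnah9, Spef2 and Ccdc39. Of these, 7 carried the same symbol in the table, and Dnah5 and Dnah9 were found under the older symbols Dnahc5 and Dnahc9. All 9 had enough reads to be tested, among 15426 genes tested in all.

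RNA sequencing was done on whole lumbar spinal cord of mice 150 days old, in 4 groups of 4 animals. The cKO_SOD1 mice carried the genotype Atg7 cKO with SOD1G93A, the cWT_SOD1 mice Atg7 cWT with SOD1G93A, the cKO mice Atg7 cKO without the transgene, and the cWT mice Atg7 cWT without it. Atg7 is an enzyme needed to form autophagosomes, and cKO and cWT are read here as conditional knockout and its wild-type counterpart. The transgene SOD1G93A encodes a human SOD1 mutant that causes amyotrophic lateral sclerosis and models it in mice. The labels do not name the Cre driver or floxed alleles. The title of the series places the loss of autophagy in motor neurons, which are not the cells of the cord with motile cilia. The ependymal cells are thus not the cells in which Atg7 was to be removed. Library totals ran from 14989026 to 20892530 counts, and every group held 2 males and 2 females by the counts of sex-linked genes. Atg7 in the whole cord did not pass the test between the genotypes, with an adjusted p of 0.2204 in cKO_SOD1 against cWT_SOD1 and of 0.9995 in cKO against cWT by edgeR. It averaged 27.18 ± 4.50 CPM (counts scaled to library size) in cKO_SOD1 and 24.09 ± 4.26 in cWT_SOD1, and 27.98 ± 1.06 in cKO and 31.42 ± 2.51 in cWT (SD, n = 4 each). The libraries did not overlap between cKO, at most 28.81 CPM, and cWT, at least 29.69 CPM, but with the transgene the mean was higher in cKO_SOD1, so the count of the targeted gene gives no clear check of the genotype labels. A CPM value is a share of the reads of a mixed tissue, in which fewer cells of a type and less RNA per cell cannot be told apart.

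A motile cilium is built on a ring of microtubule doublets around a central pair. Outer and inner dynein arms on each doublet drive the beat, radial spokes relay signals from the central pair to the arms, and nexin links and a molecular ruler set the spacing of these parts along the doublet. The transcription factor Foxj1 switches on much of this gene set in multiciliated cells, together with factors of the RFX family. In the spinal cord, ependymal cells line the central canal and move its fluid. Other markers of ependymal cells were present in every library. Ccdc153 had 44 to 96 counts, Tmem212 14 to 44, Rarres2 51 to 218 and Mia1 29 to 202. Fam183b had 21 to 90 counts, while 1700012B09Rik had only 8 to 21 and Pifo, itself a cilia gene, 6 to 24. Markers of the choroid plexus, whose epithelium is also ciliated, were mixed. Otx2 had 0 counts in all libraries, Ttr, the transthyretin that the plexus makes in bulk, had 0 to 17, Kcnj13 0 to 20, Folr1 4 to 18 and Aqp1 6 to 45. These low counts overlap those of the ependymal markers Pifo and 1700012B09Rik, apart from Otx2. Kl had 86 to 171 counts, Slc4a5 34 to 170 and Clic6 21 to 62, within the range of counts of the ependymal markers. Counts also depend on transcript length. As FPKM, which corrects for length and depth, the ependymal markers had medians from 1.21 for Pifo to 14.15 for Rarres2. Of the plexus markers only Kl, at 1.47, lay in that range. Clic6 had a median of 0.647 FPKM, Slc4a5 0.621, Folr1 0.574, Aqp1 0.229, Kcnj13 0.209, Ttr 0.135 and Otx2 0.

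The stretches of DNA before the start sites of 4 of the genes are shown because they hold letters that the factors of this gene set are known to read. TAAACA is the core motif of forkhead factors, the family of Foxj1, and GTTGCC is a half-site of RFX factors. Sequences are from RefSeq on GRCm38.p6, where 7 of the 9 genes had an entry; there were none for Foxj1 and Rsph1. Each run gives the 250 bases before the start site, 5′ to 3′ on the strand of the gene, and capitals mark motif matches. Dynlrb2, at chr8:116504765-116505014 on the plus strand, and Hydin, at chr8:110266727-110266976 on the plus strand, hold a pair of RFX half-sites that face each other. Ak7, at chr12:105705732-105705981 on the plus strand, holds the forkhead core on the opposite strand, as TGTTTA. Dnah5, at chr15:28203516-28203765 on the plus strand, holds it on its own strand.
Dynlrb2: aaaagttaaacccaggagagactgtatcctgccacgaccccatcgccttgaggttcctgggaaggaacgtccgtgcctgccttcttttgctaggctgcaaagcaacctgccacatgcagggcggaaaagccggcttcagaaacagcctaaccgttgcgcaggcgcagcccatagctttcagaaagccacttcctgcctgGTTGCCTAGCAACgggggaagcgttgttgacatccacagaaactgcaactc
Hydin: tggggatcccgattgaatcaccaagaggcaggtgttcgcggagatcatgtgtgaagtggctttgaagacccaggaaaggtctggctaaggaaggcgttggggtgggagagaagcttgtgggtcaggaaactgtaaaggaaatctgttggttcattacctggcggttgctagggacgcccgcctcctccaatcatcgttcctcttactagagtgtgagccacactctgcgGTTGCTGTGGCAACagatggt
Ak7: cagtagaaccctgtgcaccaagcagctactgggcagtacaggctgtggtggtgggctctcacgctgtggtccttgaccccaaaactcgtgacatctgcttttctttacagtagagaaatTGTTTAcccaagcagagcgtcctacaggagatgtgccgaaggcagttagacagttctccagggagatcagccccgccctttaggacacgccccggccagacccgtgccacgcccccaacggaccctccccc
Dnah5: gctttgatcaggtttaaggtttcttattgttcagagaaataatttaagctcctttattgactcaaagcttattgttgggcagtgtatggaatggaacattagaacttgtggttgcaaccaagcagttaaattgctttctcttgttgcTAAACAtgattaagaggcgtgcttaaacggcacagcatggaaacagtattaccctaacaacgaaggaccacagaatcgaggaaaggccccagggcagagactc

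Both strands of all 32851 RefSeq promoters, from 250 bases before to 50 bases after the start site, were searched for the same letters. The forkhead core was found in 13.4% of them and the half-site GTTGCC in 12.5%. Of the 7 promoters of the cilia genes, Ak7 and Dnah5 held the forkhead core and Dynlrb2, Hydin and Spef2 the half-site. A facing pair is GTTGC followed by GCAAC after a gap of 3 or 4 bases. It was found in 131 promoters, or 0.399%, among them Dynlrb2 starting at base -51 and Hydin at base -21. In both genes the half-site GTTGCC overlaps the facing pair. The facing form was searched for after the promoters of these genes had been seen. No match to these letters was found in the windows of Dnah9 and Ccdc39.

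Levels between genes were compared per transcript length, as the FPKM values the authors deposited. Foxj1 had the highest level, at a mean of 11.45 FPKM over the 16 libraries. Rsph1 followed at 3.96, Dynlrb2 at 3.86 and Ccdc39 at 3.30 FPKM, and the ranges of these 3 overlap, with 2.466 to 5.998 for Rsph1, 1.66 to 8.27 for Dynlrb2 and 2.27 to 3.96 for Ccdc39. Ak7 lay at 1.83 FPKM, with a highest value of 2.57 that overlaps the low end of Ccdc39. The lowest levels were those of Spef2 at 0.744, Dnah9 at 0.585, Dnah5 at 0.437 and Hydin at 0.363 FPKM, with ranges that overlap from each to the next. Dynlrb2 rested on 11 to 48 counts per library, Spef2 on 25 to 59 and Rsph1 on 41 to 103, against 418 to 664 for Foxj1.

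**Figure D1:**
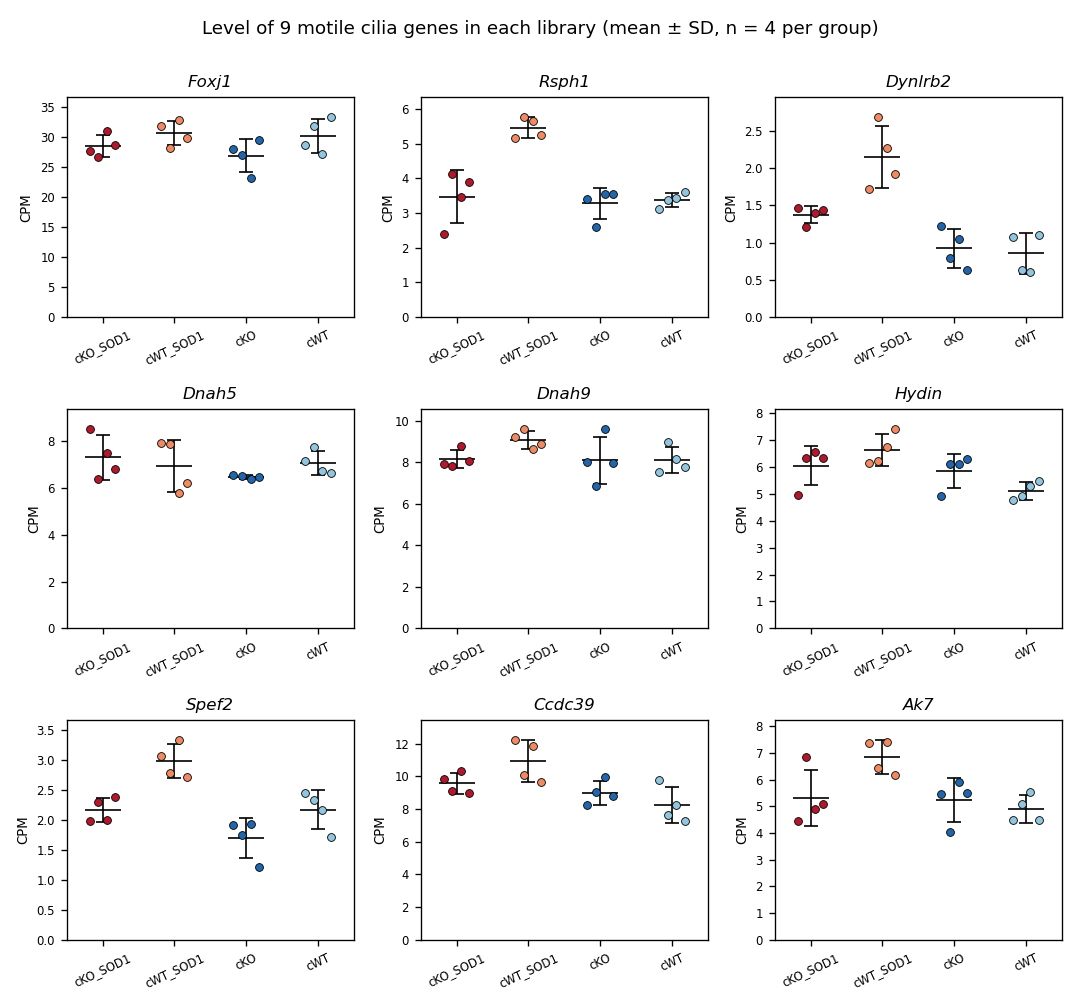
CPM (vertical axis, from 0) of each of the 9 genes in each library, by group; each point is 1 library, the long dash the mean and the bar ± 1 SD. Rsph1 lies at 5.17 to 5.76 CPM in cWT_SOD1, above every library of the other 3 groups, while Foxj1 lies at 23.2 to 33.2 CPM with no group apart.

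The effect of SOD1G93A with the Atg7 cWT genotype, cWT_SOD1 against cWT, was a rise of 6 of the 9 cilia genes, with none lower. The 6 were Dynlrb2, Rsph1, Ak7, Spef2, Ccdc39 and Hydin. Dynlrb2 rose 2.50-fold, Rsph1 1.61-fold and the others between 1.297- and 1.397-fold. Foxj1, Dnah5 and Dnah9 did not pass the test. The call rests on edgeR's quasi-likelihood test, with an adjusted p under 0.05 over all 15426 genes. This comparison moved much of the transcriptome: 33.2% of all genes tested were higher and 33.1% were lower. Of the 9 cilia genes, 66.7% were higher and 0% lower. Their median log2 fold change was 0.41, beside 0.0088 for all genes tested.

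The master factor Foxj1 was measured most precisely of the 9. It had 31.8, 28.1, 32.7 and 29.8 CPM in cWT_SOD1, against 28.6, 31.8, 27.1 and 33.2 CPM in cWT. All 4 cWT_SOD1 libraries lay within the range of cWT, and its log2 fold change was 0.02 (SE 0.08, adjusted p = 0.8287). Its 95% interval ran from -0.15 to 0.19 on the log2 scale.

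Dynlrb2, a roadblock-type light chain of dynein motors, had the largest change of the 9. It had 1.72, 2.68, 2.27 and 1.92 CPM in cWT_SOD1, against 1.08, 0.628, 0.611 and 1.11 CPM in cWT. Every cWT_SOD1 library was above every cWT library, and the log2 fold change was 1.32 (SE 0.23, adjusted p = 8.735e-05). Its paralogue Dynlrb1, the roadblock chain found in most cells, averaged 88.10 ± 6.79 CPM in cWT_SOD1 and 100.8 ± 8.90 CPM in cWT and fell by 0.19 on the log2 scale (adjusted p = 0.0101), and reads of close paralogues can be assigned to either. The outer-arm heavy chains Dnah5 and Dnah9, large motor subunits of the cilium, did not pass the test. Dnah5 had 7.94, 7.88, 5.78 and 6.23 CPM in cWT_SOD1, against 7.17, 7.77, 6.72 and 6.65 CPM in cWT. Dnah5 overlapped between the groups, with a log2 fold change of -0.02 and a 95% interval of -0.27 to 0.22 (adjusted p = 0.869). Dnah9 had 9.23, 9.61, 8.61 and 8.89 CPM in cWT_SOD1, against 7.53, 8.96, 8.17 and 7.75 CPM in cWT. The libraries of Dnah9 overlapped in part, with a log2 fold change of 0.17 and a 95% interval of -0.04 to 0.37 (adjusted p = 0.141).

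Rsph1, a protein of the radial spoke head, had 5.17, 5.76, 5.66 and 5.24 CPM in cWT_SOD1, against 3.12, 3.37, 3.44 and 3.60 CPM in cWT. The groups were far apart, and the log2 fold change was 0.69 (SE 0.14, adjusted p = 4.361e-04). For the central pair, Hydin, which makes one of its projections, had 6.15, 6.20, 6.74 and 7.43 CPM in cWT_SOD1, against 4.76, 4.91, 5.28 and 5.48 CPM in cWT, without overlap. The log2 fold change of Hydin was 0.37 (SE 0.11, adjusted p = 0.00713). Spef2, another central pair protein, had 3.08, 2.80, 3.34 and 2.72 CPM in cWT_SOD1, against 2.46, 2.34, 2.17 and 1.72 CPM in cWT. These groups did not overlap either, but they came close, and the log2 fold change of 0.46 (SE 0.16, adjusted p = 0.0172) was not called without cWT_SOD1 replicate 3 (adjusted p = 0.0580) or without cWT replicate 4 (adjusted p = 0.0619).

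Ccdc39, part of the ruler that sets the spacing along the doublet, had 12.2, 10.1, 11.8 and 9.68 CPM in cWT_SOD1, against 9.78, 7.65, 8.28 and 7.26 CPM in cWT. The highest cWT library lay just above the lowest cWT_SOD1 library, and the log2 fold change was 0.41 (SE 0.11, adjusted p = 0.00251). Ccdc39 shares 4274 bases of its locus with Ttc14, which had 2116 to 3493 counts per library and rose by 0.24 on the log2 scale in the same comparison (adjusted p = 0.0215). Whether counting used strand is not known from the sources, and the value of Ccdc39 is uncertain to that extent. Ak7, an adenylate kinase of the axoneme that handles its ATP supply, had 7.38, 6.43, 7.42 and 6.17 CPM in cWT_SOD1, against 4.51, 5.08, 5.56 and 4.49 CPM in cWT. No library of Ak7 overlapped, and the log2 fold change was 0.48 (SE 0.14, adjusted p = 0.00697). In all, 5 of the 9 genes had every cWT_SOD1 library above every cWT library, which holds for 27.6% of all genes tested.

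Cell type markers moved widely in the same comparison. The summed level of 12 reactive astrocyte genes was 14030 to 18780 CPM in cWT_SOD1 and 1594 to 1899 CPM in cWT, and all 12 were higher. The summed level of 12 microglial genes was 3158 to 5577 CPM in cWT_SOD1 and 505.1 to 590.3 CPM in cWT, with all 12 higher. Of 10 cell cycle genes, all 10 were higher. The summed level of 12 neuronal genes was 3721 to 5755 CPM in cWT_SOD1 and 11480 to 12170 CPM in cWT, with all 12 lower. Choroid plexus markers, 8 in all, summed to 16.92 to 22.19 CPM in cWT_SOD1 and 12.96 to 14.08 CPM in cWT, with 3 of 5 tested higher and 1 lower. The part of these shifts in the values of the cilia genes was not tested.

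**Figure D2:**
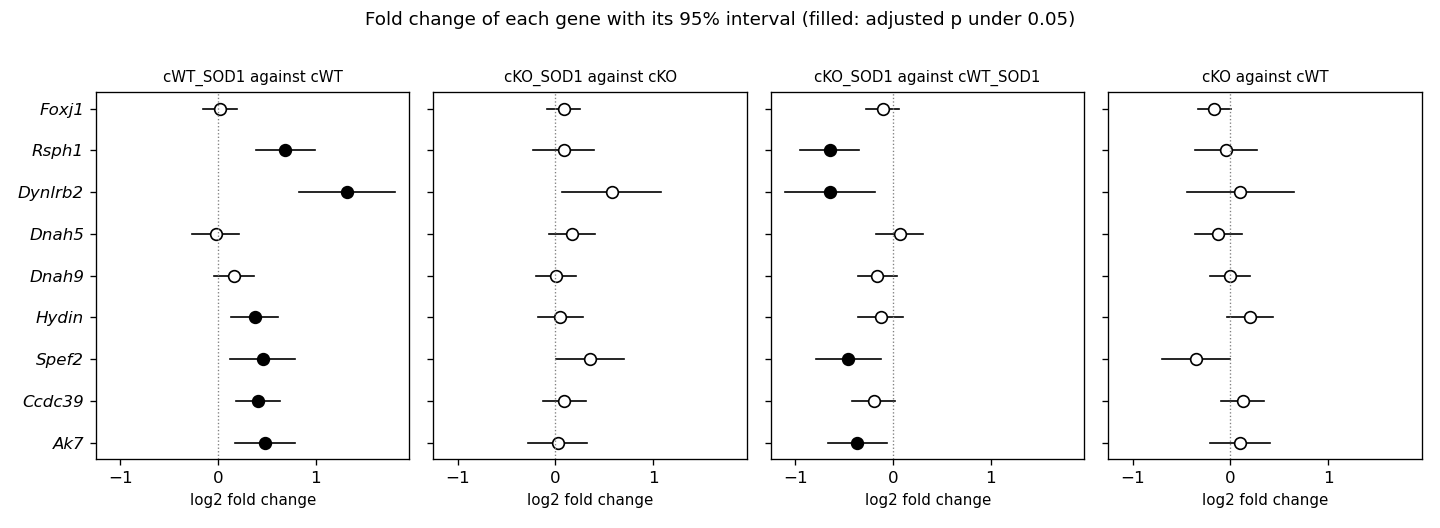
Log2 fold change (horizontal axis) of the 9 genes in 4 comparisons, with 95% intervals; filled points passed an adjusted p of 0.05 over all genes tested. In cWT_SOD1 against cWT 6 points are filled, in cKO_SOD1 against cWT_SOD1 4, and none in the panels of cKO_SOD1 against cKO and cKO against cWT.

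In the cKO background none of the 9 cilia genes passed the test. Of the 9 genes, 0 were called in cKO_SOD1 against cKO by edgeR's quasi-likelihood test, where 7.28% of all genes were called, and 0 were called by DESeq2. All 9 log2 fold changes were above 0, from 0.008 in Dnah9 to 0.58 in Dynlrb2, with a median of 0.09. At an unadjusted p under 0.05 there were 2, Dynlrb2 and Spef2. Dynlrb2 had 1.46, 1.20, 1.40 and 1.44 CPM in cKO_SOD1, against 1.22, 0.796, 1.05 and 0.634 CPM in cKO. One cKO library lay above the lowest cKO_SOD1 library, and the adjusted p was 0.172. Spef2 had 1.991, 2.304, 2.003 and 2.387 CPM in cKO_SOD1, against 1.91, 1.75, 1.94 and 1.22 CPM in cKO. Its libraries did not overlap, as in 9.91% of all genes tested in this direction, and the log2 fold change of Spef2 was 0.35 (SE 0.17, adjusted p = 0.230). Rsph1, which stood apart in cWT_SOD1, had 2.40, 4.14, 3.45 and 3.88 CPM in cKO_SOD1, against 3.40, 2.60, 3.55 and 3.56 CPM in cKO. The groups overlapped, and the 95% interval of its log2 fold change of 0.09 ran from -0.23 to 0.40 (adjusted p = 0.789).

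With SOD1G93A present, 4 of the 9 cilia genes were lower with the Atg7 cKO genotype and 5 did not pass the test. This was the comparison of cKO_SOD1 against cWT_SOD1, where 29.1% of all genes were lower and 29.1% higher. Rsph1 had 2.40, 4.14, 3.45 and 3.88 CPM in cKO_SOD1, against 5.17, 5.76, 5.66 and 5.24 CPM in cWT_SOD1. Every cKO_SOD1 library of Rsph1 was below every cWT_SOD1 library, and its level fell by 0.65 on the log2 scale (SE 0.14, adjusted p = 8.737e-04). Dynlrb2 had 1.46, 1.20, 1.40 and 1.44 CPM in cKO_SOD1, against 1.72, 2.68, 2.27 and 1.92 CPM in cWT_SOD1. These did not overlap, and Dynlrb2 fell by 0.65 (SE 0.22, adjusted p = 0.0170), a call that was lost without cWT_SOD1 replicate 2 (adjusted p = 0.0660). Spef2 had 1.991, 2.304, 2.003 and 2.387 CPM in cKO_SOD1, against 3.08, 2.80, 3.34 and 2.72 CPM in cWT_SOD1. Spef2 did not overlap and fell by 0.46 (SE 0.16, adjusted p = 0.0193), which was lost without cWT_SOD1 replicate 3 (adjusted p = 0.0645). Non-overlap in this direction, seen in Rsph1, Dynlrb2 and Spef2, held for 24.1% of all genes tested.

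Ak7 had 4.45, 6.86, 4.89 and 5.07 CPM in cKO_SOD1, against 7.38, 6.43, 7.42 and 6.17 CPM in cWT_SOD1. One cKO_SOD1 library lay among the cWT_SOD1 values, and the log2 fold change of -0.36 (SE 0.14, adjusted p = 0.0360) was the least firm of the 4 calls. It was lost without replicate 1, 3 or 4 of cKO_SOD1 or replicate 1 or 3 of cWT_SOD1, at adjusted p from 0.0704 to 0.102, and under 8 of the 13 other settings tried. The other 5 genes did not pass: Foxj1 at -0.11 with a 95% interval of -0.28 to 0.07, Hydin at -0.13, Dnah9 at -0.16, Ccdc39 at -0.20 and Dnah5 at 0.07. The same cWT_SOD1 libraries stand in this comparison and in that with cWT, so the 2 results are not independent of each other. Reactive astrocyte genes summed to 4721 to 5388 CPM in cKO_SOD1 and 14030 to 18780 CPM in cWT_SOD1, with all 12 lower, and their part in the values of the cilia genes was not tested.

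Without the transgene, no cilia gene was called between the Atg7 genotypes. In cKO against cWT, 0 of the 9 passed edgeR's quasi-likelihood test and 0 passed DESeq2, where 0.0259% of all genes, or 4, were called. At an unadjusted p under 0.05 there was 1, Spef2, with 1.91, 1.75, 1.94 and 1.22 CPM in cKO, against 2.46, 2.34, 2.17 and 1.72 CPM in cWT. The log2 fold change of Spef2 was -0.35 (SE 0.17), the lowest of the 9, and that of Hydin the highest at 0.20. Dnah5 had 6.58, 6.53, 6.37 and 6.48 CPM in cKO, against 7.17, 7.77, 6.72 and 6.65 CPM in cWT, with all 4 cKO libraries below all 4 cWT libraries, as in 1.93% of all genes tested. The difference was small, at -0.12 on the log2 scale (SE 0.11, adjusted p = 0.9995).

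The difference between the 2 transgene effects was tested as an interaction, the effect in cKO minus that in cWT. It was called in 1 of the 9 genes, Rsph1, at -0.60 on the log2 scale (SE 0.21, adjusted p = 0.0250), where 21.8% of all genes were called negative. The call for Rsph1 was lost without cKO replicate 3 (adjusted p = 0.0529), cKO replicate 4 (0.0537) or cWT replicate 1 (0.0504). Dynlrb2 had the most negative value, -0.74, but with an SE of 0.34 and an adjusted p of 0.0842. Ak7 at -0.46 (adjusted p = 0.0763), Ccdc39 at -0.32 (0.0908) and Hydin at -0.32 (0.103) did not pass either. For 8 of the 9 genes the interaction was thus not called with all 16 libraries. With 1 library left out, 4 of these had an adjusted p under 0.05 in at least 1 fit, with lowest values of 0.01496 for Ak7, 0.02761 for Ccdc39, 0.04216 for Dynlrb2 and 0.04675 for Hydin.

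The ratio to Foxj1 within a library does not depend on library scaling. Rsph1 had 17.9 ± 1.81 counts per 100 Foxj1 counts in cWT_SOD1 and 11.27 ± 0.970 in cWT (SD, n = 4 each), and 12.23 ± 2.99 in cKO_SOD1 and 12.3 ± 2.32 in cKO. The 4 cWT_SOD1 libraries, from 16.25 to 20.48, lay above all other libraries, the highest of which was a cKO_SOD1 library at 15.58. Dynlrb2 had 7.08 ± 1.76 counts per 100 Foxj1 counts in cWT_SOD1 and 2.83 ± 0.854 in cWT, and 4.84 ± 0.380 in cKO_SOD1 and 3.51 ± 1.15 in cKO. Dnah9, by contrast, had 29.82 ± 3.28 in cWT_SOD1 and 27.0 ± 2.89 in cWT, with overlap. Among the other genes called in cWT_SOD1 against cWT, Hydin had 19.34 to 24.89 in cWT_SOD1 and 15.44 to 19.47 in cWT, which overlap. Ccdc39, with 32.44 to 38.49 in cWT_SOD1 and 21.83 to 34.23 in cWT, overlapped too, while Ak7 and Spef2 did not. The spread of Dynlrb2 was wide, but its lowest cWT_SOD1 library, at 5.42, lay above the highest cWT library, at 3.76.

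**Figure D3:**
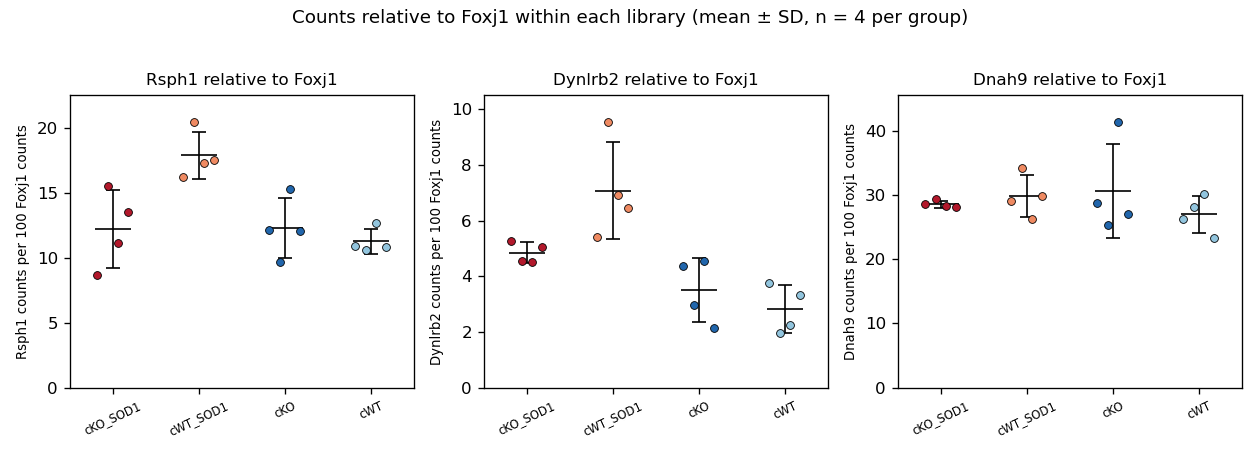
Counts of Rsph1, Dynlrb2 and Dnah9 per 100 counts of Foxj1 (vertical axes, from 0) in each library, by group; points are libraries, the long dash the mean and the bar ± 1 SD. For Rsph1 the cWT_SOD1 libraries lie at 16.25 to 20.48, above all others, while for Dnah9 the groups overlap.

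Other genes of the axoneme were read from lists by structure. Of 73 tested genes in 7 axonemal lists, with the 9 genes left out, 24 were higher and 5 lower in cWT_SOD1 against cWT. The higher share, 32.9%, is that of all genes tested (33.2%), while the lower share, 6.85%, stands beside 33.1% of all genes. Their median log2 fold change was 0.38. In cKO_SOD1 against cWT_SOD1, 17 were lower and 4 higher, with a median of -0.18. Both shares, 23.3% lower and 5.48% higher, are below the 29.1% of all genes in each direction. In cKO_SOD1 against cKO 1 was higher, Ccdc103, and in cKO against cWT none was called. For the interaction 11 were negative and 2 positive, or 15.1% and 2.74%, beside 21.8% and 23.2% of all genes. The single lists are small, and each share stands beside 33.2% higher and 33.1% lower over all genes in cWT_SOD1 against cWT, and 29.1% either way in cKO_SOD1 against cWT_SOD1.

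The microtubule inner proteins, which line the doublets from within, had 8 of 19 higher (42.1%) and 0 lower in cWT_SOD1 against cWT, with a median of 0.66. Cfap126, listed as 1700009P17Rik, averaged 6.07 ± 0.921 CPM in cWT_SOD1 and 2.85 ± 0.226 CPM in cWT (SD, n = 4 each), a log2 fold change of 1.09 (adjusted p = 8.496e-06). Cfap44, listed as Wdr52, was at 0.77 and Cfap43, listed as Wdr96, at 0.72. In cKO_SOD1 against cWT_SOD1 7 of the 19 were lower, a share of 36.8%, and Cfap126 fell by 0.97.

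Central pair genes had 5 of 12 higher (41.7%) and 0 lower, and the 5 include Hydin and Spef2. Kif9, a kinesin of the central pair, averaged 7.75 ± 0.484 CPM in cWT_SOD1 and 5.73 ± 0.316 CPM in cWT, a log2 fold change of 0.43 (adjusted p = 1.816e-04). Cfap70, listed as Ttc18, was higher by 0.90. Among the radial spoke genes, 2 of 8 were higher, Rsph1 and Nme5 (0.38, adjusted p = 0.0494).

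Dynein arm genes had calls in both directions in cWT_SOD1 against cWT. Their higher shares lie near the 33.2% of all genes, and their lower shares below the 33.1% of all genes. Of 11 axonemal dynein heavy chains, 3 were higher (27.3%) and 1 lower (9.09%), with Dnah11 at 0.88, Dnah1 at 0.54 and Dnah8 at -1.303. Dnah8 averaged 1.75 ± 0.475 CPM in cWT_SOD1 and 4.30 ± 0.921 CPM in cWT (SD, n = 4 each). Of 8 intermediate and light chains, 3 were higher (37.5%) and 1 lower (12.5%). Dnai2, listed as Dnaic2, an intermediate chain of the outer arm, averaged 11.02 ± 0.583 CPM in cWT_SOD1 and 5.76 ± 1.05 CPM in cWT, a log2 fold change of 0.93 (adjusted p = 9.451e-06), and Dnali1 was also higher by 0.93. Dnai2 fell by 0.91 and Dnali1 by 0.72 in cKO_SOD1 against cWT_SOD1. Of 12 genes of dynein assembly and docking, 4 were higher (33.3%) and 2 lower (16.7%). Ccdc103, a dynein attachment factor, was at 1.31 and Odad1, listed as Ccdc114, at 1.06, while Spag1, an assembly factor, fell by 0.49 on the log2 scale.

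Of 10 nexin link and ruler genes, 4 were higher and 1 lower, with Iqcg at 0.88 and Drc7, listed as Ccdc135, at 0.9975. Of the 4 adenylate kinases tested, Ak7 was higher, while Ak5 at -0.74 and Ak1 at -0.33 were lower. Ak1 and Ak5 are also used outside cilia, Ak5 mainly in brain neurons. Of 12 genes of cilia transcription and centriole amplification, 3 were higher and none lower. Rfx4 averaged 59.6 ± 9.95 CPM in cWT_SOD1 and 33.7 ± 2.52 CPM in cWT (log2 fold change 0.82, adjusted p = 6.01e-07), and Rfx2 5.84 ± 1.71 CPM in cWT_SOD1 and 3.28 ± 0.244 CPM in cWT (0.84, adjusted p = 1.101e-03). Both are RFX factors, and Rfx4 is also expressed by astrocytes. Rfx2 was higher in cKO_SOD1 against cKO too (0.74, adjusted p = 0.0344), the only gene of this list called there, where 7.28% of all genes were called. Cep152, a centriole protein, was at 0.44.

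Lists of genes used by cilia in general had more members called lower than higher in cWT_SOD1 against cWT. Of 22 genes of intraflagellar transport, the carrier system that builds any cilium, 3 were higher (13.6%) and 10 lower (45.5%) in cWT_SOD1 against cWT, with a median of -0.087. Kifap3 averaged 218.3 ± 30.6 CPM in cWT_SOD1 and 358.1 ± 12.5 CPM in cWT, and fell by 0.71 on the log2 scale. Kif3a, its partner in the kinesin motor, fell by 0.59, and Dync2li1, of the return motor, was higher by 0.63. Of 19 primary cilium genes, which serve the single sensory cilium of neurons and other cells, 4 were higher (21.1%) and 9 lower (47.4%), with a median of -0.035. Adcy3, an adenylyl cyclase of neuronal cilia, averaged 37.0 ± 3.69 CPM in cWT_SOD1 and 61.3 ± 1.14 CPM in cWT, and fell by 0.73. In cKO_SOD1 against cWT_SOD1, 7 transport genes were higher (31.8%, near the 29.1% of all genes) and 3 lower (13.6%), and 8 primary cilium genes were higher (42.1%) and 2 lower.

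Ependymal genes listed apart from the axonemal lists had 7 of 17 higher (41.2%, beside 33.2% of all genes) in cWT_SOD1 against cWT. In the same comparison 1 was lower (5.88%), and the median was 0.53. The list is not free of cilia genes, as 1700007G11Rik, for example, is also named Cfap276. Its counts are thus not a measure of ependymal cells apart from their cilia. Mia1 averaged 9.77 ± 2.19 CPM in cWT_SOD1 and 1.76 ± 0.291 CPM in cWT, a log2 fold change of 2.48 (adjusted p = 1.718e-09). Rarres2, the secreted chemerin, averaged 9.70 ± 2.37 CPM in cWT_SOD1 and 3.70 ± 0.310 CPM in cWT, and its log2 fold change was 1.39 (adjusted p = 4.23e-07). Ccdc153, a marker of ciliated ependymal cells, did not pass the test at 0.16. In cKO_SOD1 against cWT_SOD1, 5 were lower (29.4%, the share of all genes being 29.1%) and 1 higher (5.88%), where Mia1 fell by 1.91 and Rarres2 fell by 1.17.

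**Figure D4:**
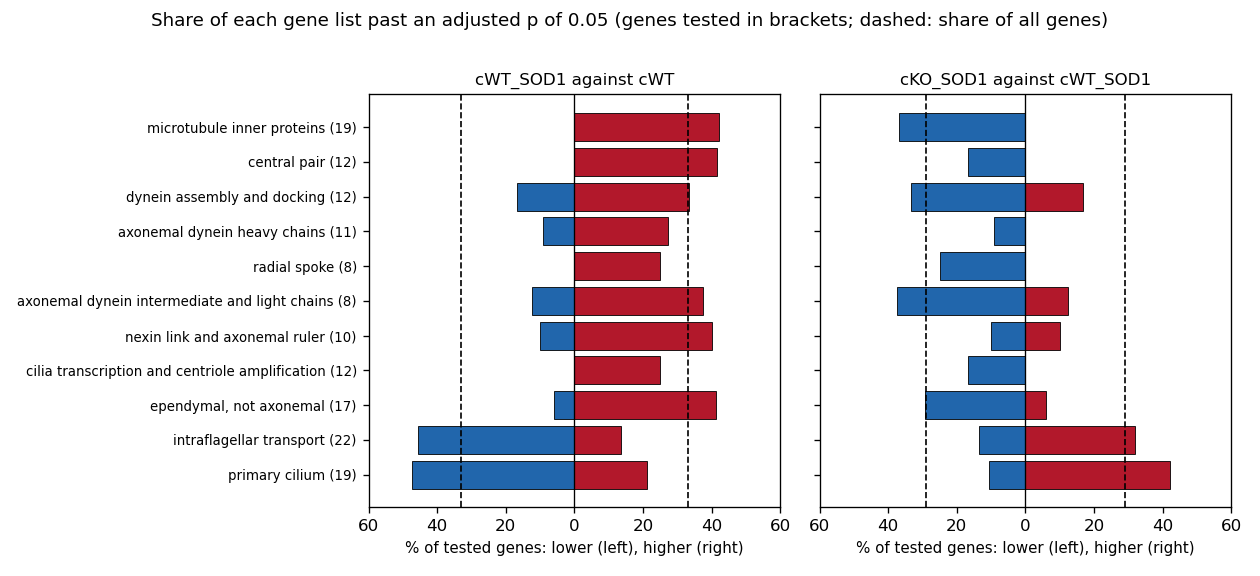
Percent of the tested genes of each list that were higher (to the right) or lower (to the left) at an adjusted p under 0.05, with the number tested in brackets; dashed lines are the shares over all genes tested. In cWT_SOD1 against cWT the transport list has 13.6% higher and 45.5% lower and the microtubule inner proteins 42.1% higher and 0% lower; in cKO_SOD1 against cWT_SOD1 the nexin link and ruler list is even, with 1 gene of 10 each way.

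Within groups, no common variation of the 9 genes as a set was seen, though counts as low as 11 in Dynlrb2 could hide it. What counting error alone would give was not tested. With the group means removed, the correlation of each gene with the mean of the other 8 over the 16 libraries ran from -0.39 for Dnah5 to 0.41 for Dnah9 and was negative for 4 of them, Dnah5, Foxj1, Hydin and Dynlrb2, across libraries that share depth and low counts. The genes whose log2 CPM was most like the mean of the 9 with group means removed, among 14360 genes ranked, were Ccdc90b (Pearson r of 0.824), Fgf2 (0.815) and Asf1b (0.797). These are the extremes of a long ranking over only 16 libraries. Whether such values of r arise by chance was not tested. With the group means kept they were Fgf2 (0.984), Pdlim4 (0.972) and Tm4sf1 (0.971), and here the points share the 4 group levels. The mean centred log2 CPM of the 9 genes was 0.29 ± 0.05 in cWT_SOD1 and -0.13 ± 0.03 in cWT (SD, n = 4 each), where cKO_SOD1 libraries ran from -0.09 to 0.04 and cKO libraries from -0.25 to -0.05.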

How the data were processed

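Poly-A RNA of lumbar spinal cord was made into TruSeq libraries, per the labels' protocols. The submitters' processing notes name Cufflinks 2.0.2, TopHat2 2.0.4 and bcl2fastq 1.8.4, with mm9 as the build, but no role for any of them. The gene counter is not given in the sources used here. The authors deposited raw read counts per gene symbol. FPKM values, which correct for length and depth, were deposited too, and were identical in the joint table and in the tables of the 16 libraries. The labels name no molecular tags.

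The quasi-likelihood F-test of edgeR 4.0.16 (R 4.3.3) was run on the counts, with TMM scaling, the default filterByExpr, all 16 libraries in 1 fit and a coefficient per group, over 5 comparisons. P-values were adjusted by Benjamini-Hochberg over all 15426 genes tested. The 4 animals of a group are biological replicates per the series' design text. No replicate pair agreed within counting error: the mean chi-square per gene was 2.82 to 40.3. Fits were tested on simulated counts. DESeq2 1.42.0 and limma 3.58.1 served for alternatives.

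The genes and the 24 lists, of whose 274 entries 268 were matched, were chosen with earlier results of these data known. Up to 3 genes with the smallest p were named from each list described. The union of 7 axonemal lists was put together after values were seen, and Ccdc103 beside its counts and Ccdc153 were chosen after values were seen. Promoters are RefSeq windows on GRCm38.p6. In the deposited files, on mm9, Foxj1 spans chr11:116192018-116196668, Rsph1 chr17:31391965-31414301, Dynlrb2 chr8:119028915-119039815, Ak7 chr12:106944192-107020657, Hydin chr8:112790877-113134153, Dnah5 chr15:28133521-28401800, Dnah9 chr11:65644826-65982053, Spef2 chr15:9592491-9678561 and Ccdc39 chr3:33711283-33743232.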

Additional observations from a re-analysis of the deposited data

Results flagged for a closer look

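Rsph1 differed between the 2 Atg7 genotypes in its transgene effect, by -0.60 on the log2 scale (SE 0.21, adjusted p = 0.0250 by edgeR's interaction test). In the same test 21.8% of all genes were called negative. The Rsph1 call was lost in 3 fits with 1 library left out, and in each sex alone. Of the groups of 4 libraries that the 9 genes make, 36 in all, 3 had a lone low library by Dixon's criterion at the 95% level. Rsph1 had 2.60 CPM in cKO replicate 2, with the other cKO libraries at 3.40 to 3.56. Hydin had 4.98 CPM in cKO_SOD1 replicate 1, with the others at 6.32 to 6.57, and 4.94 CPM in cKO replicate 1, with the others at 6.10 to 6.29. Chance flags about 1 group in 20.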

How the results depend on the processing

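The call of 6 genes in cWT_SOD1 against cWT held at 6 under every setting other than males alone (2) and females alone (2), and at 5 to 6 with any 1 library left out. In cKO_SOD1 against cWT_SOD1 the 4 calls became 3 in the fit with a replicate block, with limma-voom, without the filter, with the 8 libraries alone and on log2(FPKM + 0.1), 0 in males, 1 in females and 2 to 4 with 1 library left out (2 without cWT_SOD1 replicate 3). The 1 interaction call became 0 in males and 0 in females, and 0 to 2 with 1 library left out. Correlations of same-numbered deviations from the group means ran from -0.253 to 0.303. They were 0.164 to 0.278 for replicate 4, -0.253 to -0.0938 for replicate 3, and on both sides of 0 for replicates 1 and 2. They do not decide whether the replicate numbers stand for pairs or batches, which the labels do not say. Ak7 in cKO_SOD1 against cWT_SOD1 had an adjusted p of 0.0504 with the block, which ended no other call of the 9 genes. Each sex alone leaves 2 animals a group.

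Over all genes, the 1123 calls of cKO_SOD1 against cKO became 2264 with limma-voom, 2480 with 8 libraries, 91 in males, 362 in females and 685 to 1643 with 1 library left out (685 without cKO replicate 2). The 4 calls of cKO against cWT became 17 with DESeq2, 10 with limma-voom, 9 with 8 libraries, 1 in males, 2 in females and 2 to 9 with 1 library left out; 543 genes had an unadjusted p under 0.05. The 6949 interaction calls became 2863 in males and 4616 in females.

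Values that changed sign had none called in the fit reported. Dnah5 in cWT_SOD1 against cWT became 0.016 on log2(FPKM + 0.1), with and without a filter, 0.0079 on log2(FPKM + 1) and 0.081 in females, and Foxj1 -0.062 in females. In cKO_SOD1 against cKO, males gave -0.10 for Hydin, -0.060 for Dnah9 and -0.00072 for Ccdc39, and females -0.14 for Ak7. In cKO against cWT, Dnah9 became 0.00028 with upper-quartile scaling and 0.0032 in females. Foxj1 in cKO_SOD1 against cWT_SOD1 became 0.043 in females. With 1 library left out, cWT_SOD1 against cWT gave -0.029 to 0.074 for Foxj1 and -0.084 to 0.057 for Dnah5. In cKO_SOD1 against cKO the ranges were -0.0093 to 0.22 for Rsph1, -0.12 to 0.10 for Ak7, -0.024 to 0.13 for Hydin and -0.065 to 0.097 for Dnah9. In cKO against cWT they were -0.089 to 0.050 for Rsph1, -0.064 to 0.25 for Dynlrb2 and -0.091 to 0.071 for Dnah9. Dnah5 in cKO_SOD1 against cWT_SOD1 ran from -0.015 to 0.13, and the interaction of Foxj1 from -0.00037 to 0.11. The causes were not tested. Counts of 11 to 48 per library for Dynlrb2 limit what can be seen in that gene.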
